A study of Mus musculus with 10 samples.

Results

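Genes of the actin cytoskeleton and of cell motility were examined in neutrophils isolated from mouse blood. The 40 genes were chosen by symbol, and each was represented by the probe set of that symbol with the highest mean over the 10 arrays. A probe set is the group of array probes that reads 1 transcript or several related ones. Of the 40 genes, 35 had a probe set named by their symbol alone, among 17097 genes with such a probe set in all. Actr2, Arpc1b and Arpc3 of the Arp2/3 complex, the capping protein gene Capza1 and the crosslinker gene Actn4 were not analysed here. All blood came from untreated males of the C57BL/6 strain, 3 months old and acclimatized for 9 days, and the labels name no genetic change in either group. Blood of 5 mice was handled separately, giving 5 biological replicates (mouse 1 to mouse 5). Blood of 5 other mice was combined and divided again into 5 portions (pool 1 to pool 5) before the cells were isolated, so the 5 pool arrays are technical replicates of 1 mixture. Neutrophils were isolated with magnetic labelling of Ly6G, at a purity of 71.5 to 99.5% by flow cytometry, with no value for a single sample in the labels.

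Actin filaments grow from monomers, which profilin and the beta thymosins hold in reserve, and are taken apart by cofilin and gelsolin. In a crawling neutrophil, Rac activated by DOCK proteins and the WASP family switch on the Arp2/3 complex, which branches new filaments and pushes the leading edge forward. Crosslinkers, myosin II and the talin and vinculin links to integrins turn that growth into traction, and ERM proteins tie the filaments to the membrane. Platelets, which circulate in the same blood, are rich in the same machinery, vinculin, talin, filamin and non-muscle myosin among it.

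The CArG box, the binding motif of serum response factor, is known near the start of several actin genes. It is CC, then 6 bases that are each A or T, then GG, and it reads as the same motif on both strands. In the RefSeq promoters of the GRCm38.p6 assembly, which run from 250 bases before to 50 bases after each start, 38 of the 40 genes had an entry, with 49 promoters in all. Actb and Coro1b had none, so they were not searched for the motif. The motif was in 4 of those 49 promoters, or 8.16%, against 535 of 32851 promoters of all genes, or 1.63%. In the further actin regulation genes described at the end it was in 2 of 86 promoters, or 2.33%, near the share of all genes. The 4 genes were Actg1, Arpc4, Myl6 and Vcl. Their 250 bases before the start are shown because Vcl and Myl6 were called lower in the mice in some of the settings described further on. With all 5 mice neither passed, and Myl6 passed only without mice 4 and 5. The 2 further genes with the motif, Myl9 and Srf, did not pass the comparison of means with all mice, without mouse 5 or without mice 4 and 5. Myl9 was still below every pool array in all 5 mice (difference -2.15 in mice 1 to 4, adjusted p = 0.121 by limma). It passed the comparison of spread, described further on, with all mice and without mouse 5. The motif is in capitals. It begins 227 bases before the start in Vcl (chr14:20929148-20929397, plus strand), 50 in Myl6 (chr10:128493010-128493259, minus strand), 90 in Actg1 (chr11:120348496-120348745, minus strand) and 250 in Arpc4 (chr6:113377863-113378112, plus strand). A match describes the letters of this window and was not tested as a binding site.
Vcl: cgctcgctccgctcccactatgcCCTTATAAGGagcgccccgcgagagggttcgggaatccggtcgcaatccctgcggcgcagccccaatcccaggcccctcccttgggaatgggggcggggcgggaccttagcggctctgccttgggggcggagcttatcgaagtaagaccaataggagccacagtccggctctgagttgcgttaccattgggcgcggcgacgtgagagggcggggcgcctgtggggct
Myl6: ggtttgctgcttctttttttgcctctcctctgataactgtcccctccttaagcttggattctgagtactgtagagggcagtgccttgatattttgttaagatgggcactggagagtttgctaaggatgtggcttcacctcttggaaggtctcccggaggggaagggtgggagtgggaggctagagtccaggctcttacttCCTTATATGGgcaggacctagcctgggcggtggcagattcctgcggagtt
Actg1: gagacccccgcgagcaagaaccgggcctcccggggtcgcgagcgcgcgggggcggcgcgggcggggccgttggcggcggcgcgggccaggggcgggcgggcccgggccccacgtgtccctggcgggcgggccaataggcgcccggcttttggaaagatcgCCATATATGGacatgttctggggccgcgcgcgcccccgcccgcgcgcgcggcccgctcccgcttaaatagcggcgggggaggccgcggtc
Arpc4: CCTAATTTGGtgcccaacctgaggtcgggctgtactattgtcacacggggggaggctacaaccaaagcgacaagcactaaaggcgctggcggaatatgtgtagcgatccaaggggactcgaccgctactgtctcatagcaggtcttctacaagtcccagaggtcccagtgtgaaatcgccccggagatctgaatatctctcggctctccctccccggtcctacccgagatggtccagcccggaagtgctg

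All signals are on the log2 scale, so a difference of 1 unit is a 2-fold difference. Mouse 5 stood apart from the other arrays: the 95th percentile of its signals was 7.46, against 8.72 to 9.25 on the other 9 arrays. The array's own Actb control probes, which sit near the 3′ end, in the middle and near the 5′ end of the transcript, gave a 3′ minus 5′ difference of 4.57 in mouse 5 and 4.41 in mouse 3. That difference was 1.28 to 1.71 in mice 1, 2 and 4 and 1.36 to 2.72 in the pool. The matching Gapdh control probes did not set mouse 5 apart in this way: their difference was 3.05 in mouse 5, the smallest of the 10 arrays, 3.38 to 6.16 in mice 1 to 4, with mouse 3 the highest, and 4.89 to 5.74 in the pool. The 3′ Gapdh probes themselves read 7.78 in mouse 5 and 11.62 to 12.25 elsewhere. All 13 neutrophil markers with a probe set (of 15 listed) passed the filter on signal. Their mean level, relative to each gene's mean over the 10 arrays, was -0.42 to 0.99 in mice 1 to 4, -2.49 in mouse 5 and -0.05 to 0.84 over the pool arrays. Not every marker followed this mean. S100a8 read 13.29 in mouse 5, the highest of the 10 arrays, and S100a9 read 12.60 there, against 12.28 to 12.80 elsewhere. In mouse 3, Camp, Ltf and Ngp read 11.80, 12.56 and 13.26, against 6.12 to 9.26 in mice 1, 2 and 4. The B cell list (7 genes tested) was at 0.88, 0.88, 1.84, -2.62 and -1.88 in mice 1 to 5 and at -0.19 to 0.86 in the pool. The platelet list (8 genes tested) was at -0.73, -0.34, -1.79, -0.62 and -1.21 in mice 1 to 5 and at 0.78 to 1.10 in the pool. The part of these values in the results that follow was not tested. Results are therefore given with all mice, without mouse 5, and without mice 4 and 5.

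**Figure D1:**
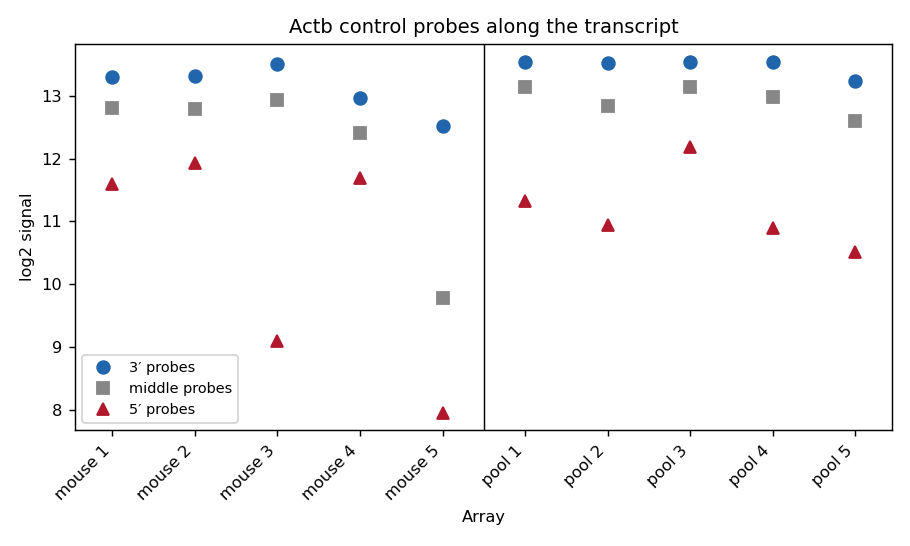
Log2 signal (vertical axis) of the array's Actb control probes near the 3′ end (circles), in the middle (squares) and near the 5′ end (triangles) of the transcript, for each of the 10 arrays (horizontal axis), 1 point per array. The 5′ probes read 9.10 in mouse 3 and 7.95 in mouse 5 against 10.52 to 12.19 on the other arrays, and the middle probes read 9.78 in mouse 5.

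The first comparison asks whether a gene differed more between mice than repeated processing of 1 blood sample did. With all 5 mice, 27 of the 35 members varied more between mice than between pool arrays, from Actb and Actg1 to the integrin link Tln1. Over all 10734 genes tested, 66.8% did so, and in the 25% of genes with the highest signal 76.2% did, against 77.1% of the members. The median SD of the members was 0.91 between mice and 0.30 between pool arrays, and 30 members, or 85.7%, spanned more than 2-fold over the mice, against 67.6% of all genes and 89.5% of the 25% with the highest signal. The test was a moderated variance ratio with Benjamini-Hochberg adjustment over all genes tested. Without mouse 5, 3 of the 35 members passed (Tmsb10, Capg and Fmnl1), or 8.57%, against 20.3% of all genes and 10.6% of the 25% with the highest signal. In the same set, 6 of the 35 members passed after quantile normalization, against 27.5% of all genes, and 2 after median centring, against 18.5%. As deposited, the median SD of the members between mice 1 to 4 was 0.27, against 0.33 for all genes. Without mice 4 and 5, 0 of 35 passed, against 0.708% of all genes. At an unadjusted p under 0.05 there was 1 member, against 959 of the 10734 genes tested. No member varied less between mice than between pool arrays in any of these 3 sets by this test (0% of all genes in each). At an unadjusted p under 0.05, 0, 0 and 1 members did so, against 58, 317 and 795 of the 10734 genes tested.

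**Figure D2:**
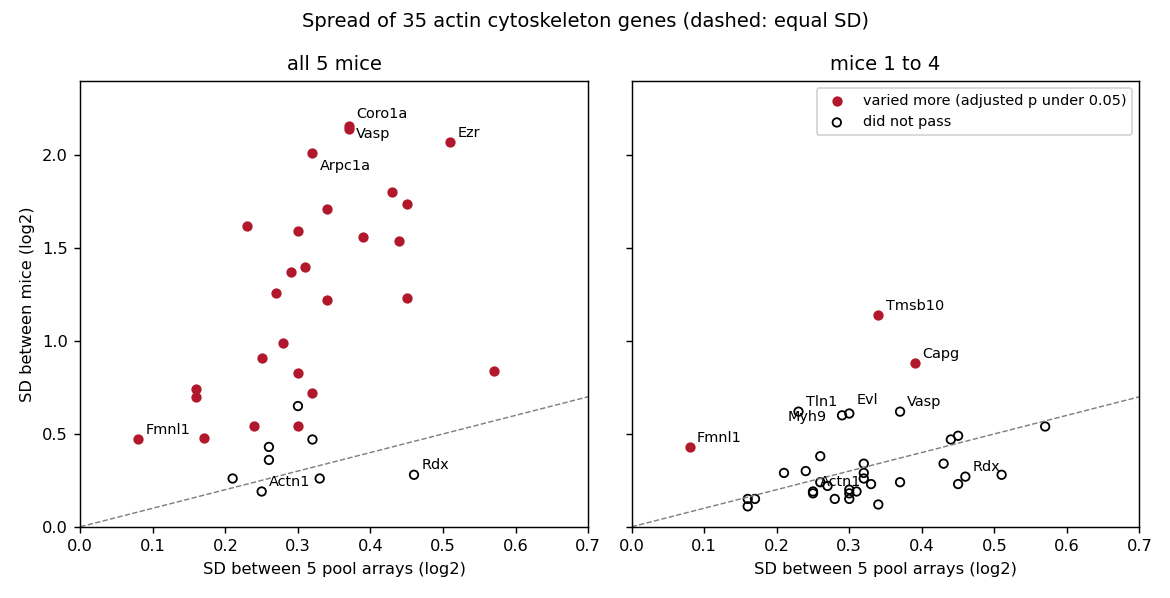
SD of the log2 signal between the 5 pool arrays (horizontal axis) against the SD between mice (vertical axis) for 35 genes, with all 5 mice (left) and with mice 1 to 4 (right); filled points passed the variance test and the dashed line marks equal SD. With all mice 27 genes passed, and with mice 1 to 4 only Tmsb10, Capg and Fmnl1 passed.

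Mouse 5 read below the median of mice 1 to 4 for 30 of the 35 members, or 85.7%, against 62.4% of all genes and 83.9% of the 25% with the highest signal. It was below every other array for 25 members, or 71.4%, against 43.8% of all genes and 73.9% of the 25% with the highest signal. Both shares of the members were thus near those of genes of like signal. The median shift of the members in mouse 5 was -1.84, against -0.51 over all genes and -2.02 in the 25% with the highest signal. The 5 members above the median of mice 1 to 4 were Actn1, Cfl1, Gsn, Myl6 and Tmsb10. With the arrays quantile normalized, 26 members were below and 9 above, and with the arrays centred on their medians, 31 were below and 4 above. Among mice 1 to 4, mouse 3 was the highest for 17 members (48.6%, against 35.3% of all genes and 41.1% of the 25% with the highest signal). It was the lowest for 10 (28.6%, against 26.1% of all genes), and mice 1 and 2 were within 0.3 of each other for 30 (85.7%, against 86.4%), both near the share of all genes.

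**Figure D3:**
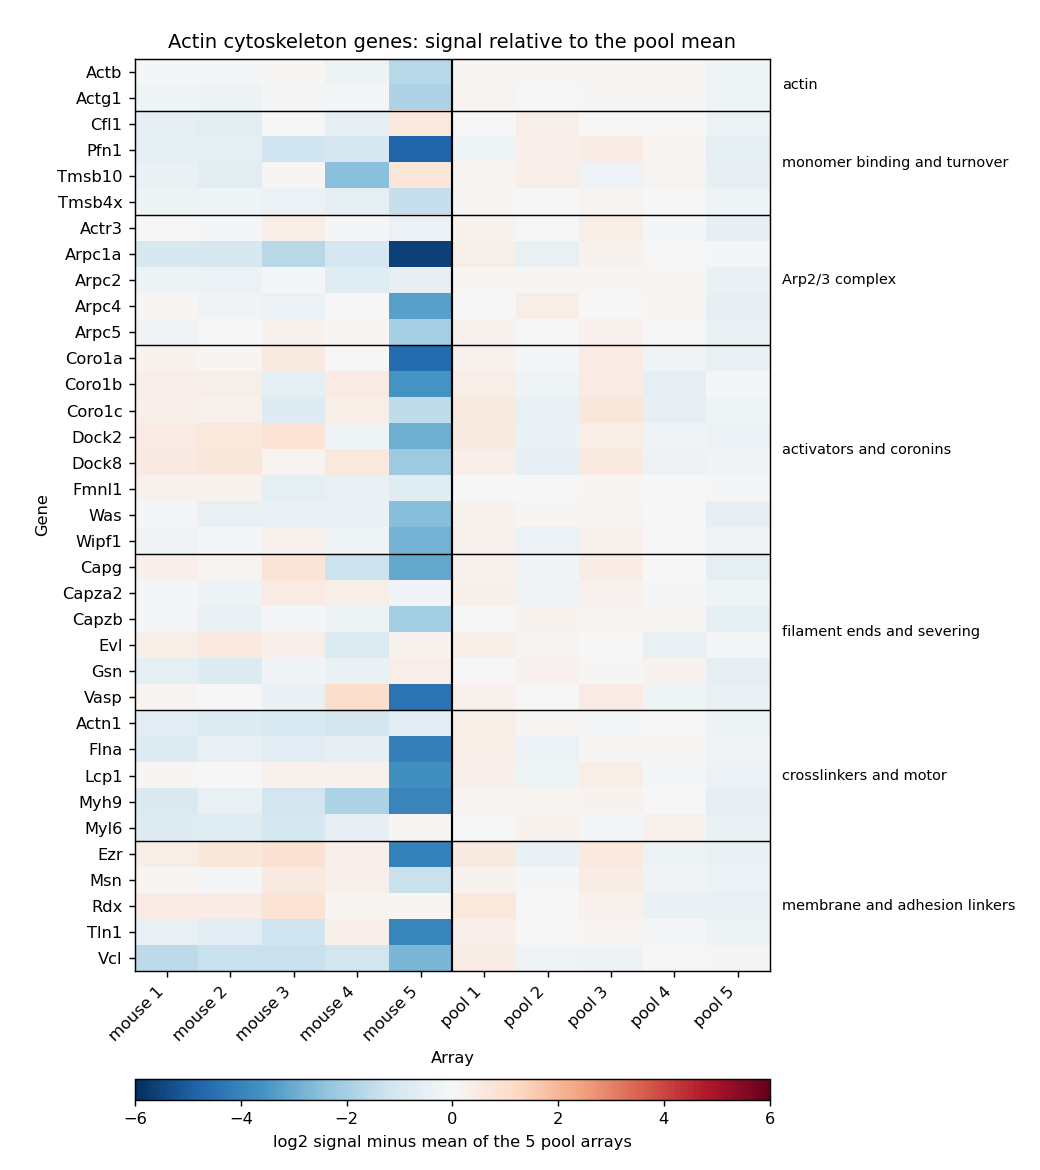
Log2 signal minus the gene's mean over the 5 pool arrays (colour; blue is lower, red is higher) for 35 genes (vertical axis, grouped by role) on the 5 mouse and 5 pool arrays (horizontal axis). The column of mouse 5 is the bluest, with Cfl1, Gsn and Tmsb10 above every other array, and Vcl, Actn1, Arpc1a and Flna are below the pool in all 5 mice.

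Both cytoplasmic actins varied more between all 5 mice, and neither passed with mice 1 to 4. Actb, which encodes beta actin, read 13.23, 13.23, 13.40, 13.03 and 11.69 in mice 1 to 5 and 13.41, 13.42, 13.41, 13.43 and 13.07 in pools 1 to 5. Mouse 5 was the low array, and the other mice overlapped the pool. The SD of Actb was 0.70 between mice (n = 5) and 0.16 between pool arrays (n = 5; adjusted p = 0.00414 by the variance test), and 0.15 between mice 1 to 4 (adjusted p = 0.875). Actg1, which encodes gamma actin, read 12.54, 12.51, 12.73, 12.69 and 10.97 in mice 1 to 5 and 12.96, 12.79, 12.86, 12.90 and 12.55 in pools 1 to 5. Again mouse 5 alone was low, and the SD without it was 0.11. Mice 1 to 4 spanned 1.29-fold for Actb and 1.16-fold for Actg1. A second Actb probe set of low signal went the other way, at 6.63, 7.5, 8.35, 8.09 and 10.33 in mice 1 to 5 and 6.11 to 7.5 in pools 1 to 5.

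All 4 genes of monomer binding and turnover varied more between the 5 mice, with mouse 5 low for Pfn1 and Tmsb4x and high for Cfl1 and Tmsb10. Pfn1, which encodes profilin 1, the protein that feeds monomers to growing ends, read 10.94, 10.97, 10.29, 10.48 and 6.71 in the mice. Its pool values were 11.23, 11.80, 11.95, 11.60 and 10.90. Mice 3 to 5 were below the whole pool, mouse 5 by far the most, and the SD was 1.80 between mice and 0.43 in the pool (adjusted p = 0.000253). Tmsb10, which encodes thymosin beta 10, a monomer sequestering peptide, read 11.51, 11.25, 12.02, 9.40 and 12.65 in mice 1 to 5 and 12.11, 12.28, 11.74, 12.08 and 11.44 in pools 1 to 5. Here mouse 4 was low and mouse 5 was high, so the SD was 1.22 with all mice and still 1.14 without mouse 5, against 0.34 in the pool. It passed in both sets (adjusted p = 0.000938 and 0.0079), and its SD in mice 1 to 3 was 0.39 (adjusted p = 0.969). The low mouse 4 stood beside the B cell list at -2.62 and the MHC class II and dendritic cell list at -2.13 in that mouse. Both lists were also low in mouse 5, at -1.88 and -1.43, where Tmsb10 was the highest of the 10 arrays. Mouse 4 was the lowest of mice 1 to 4 for 37.1% of the members and 52% of all genes. The part of the 2 lists in the Tmsb10 values was not tested. Tmsb10 also passed without mouse 5 under both other scalings.

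Tmsb4x, which encodes thymosin beta 4, the sequestering peptide of most blood cells, had the smallest spread of these genes. It read 12.99, 13.04, 12.94, 12.71 and 11.89 in mice 1 to 5 and 13.40, 13.30, 13.44, 13.33 and 13.01 in pools 1 to 5. Only mouse 2 reached into the pool's range, and the SD was 0.48 between mice and 0.17 in the pool (adjusted p = 0.0458). Cfl1, which encodes cofilin 1, the main severing protein of non-muscle cells, read 12.15, 12.05, 12.70, 12.11 and 13.32 in mice 1 to 5 and 12.69, 13.01, 12.66, 12.65 and 12.32 in pools 1 to 5. Mouse 5 was the highest of the 10 arrays (SD between mice 0.54, adjusted p = 0.0436). The other Cfl1 probe set read 6.50, 7.05, 5.86, 6.37 and 5.61 in the mice, with mouse 5 the lowest, so the direction in mouse 5 depended on the probe set. Both Tmsb4x and Cfl1 passed narrowly. Without the filter on signal their adjusted p-values were 0.106 and 0.0832, and without pool 1, 2, 3 or 4 in turn they were 0.0906 to 0.12 and 0.0671 to 0.102. Without mouse 5 they were 0.893 and 0.564. Cfl1 also did not pass after median centring (adjusted p = 0.105).

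Of the 5 Arp2/3 subunits with a probe set, Arpc1a, Arpc4 and Arpc5 varied more between the 5 mice, while Actr3 and Arpc2 did not pass. Arpc1a, one of the alternative forms of the p41 subunit, read 8.94, 8.95, 8.24, 8.82 and 4.29 in mice 1 to 5 and 10.25, 9.44, 10.10, 9.93 and 9.75 in pools 1 to 5. All 5 mice were below every pool array, and the shift of mouse 5 from the median of mice 1 to 4 was -4.59 (SD 2.01 against 0.32 in the pool, adjusted p = 0.000108). Arpc4, the p20 subunit at the core of the complex, read 9.45, 9.19, 9.03, 9.40 and 6.16 in mice 1 to 5 and 9.36, 9.77, 9.40, 9.54 and 8.92 in pools 1 to 5. Mice 1 to 4 lay within the pool's range and mouse 5 lay far below it (SD 1.40 and 0.31). Arpc5 had the same low mouse 5, at 9.52, with mice 1 to 4 at 11.28 to 11.70.

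Actr3, the actin-related subunit Arp3, read 11.47, 11.38, 11.89, 11.45 and 11.17 in mice 1 to 5 and 11.73, 11.54, 11.83, 11.40 and 10.99 in pools 1 to 5. Its SD was 0.26 between mice and 0.33 in the pool (adjusted p = 0.663), and the groups overlapped throughout. The other Actr3 probe sets read 8.81 and 9.35 in mouse 5 against 10.78 to 11.91 in mice 1 to 4. With the probe set of median signal taken per gene, the log2 ratio of the variance between mice to that of the pool was 3.87 for Actr3, against -0.60 here. Arpc2, a subunit of the core, read 12.16, 12.13, 12.42, 11.72 and 11.99 in mice 1 to 5 and 12.60, 12.54, 12.52, 12.59 and 12.09 in pools 1 to 5. Mouse 4 was the lowest array, and the SD was 0.26 between mice and 0.21 in the pool (adjusted p = 0.527).

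All 8 activators and coronins varied more between the 5 mice, and mouse 5 was the lowest of the 10 arrays for each of them. Coro1a, the coronin of haematopoietic cells, read 12.31, 12.22, 12.62, 12.05 and 7.48 in mice 1 to 5 and 12.33, 12.00, 12.57, 11.89 and 11.63 in pools 1 to 5. Mice 1 to 4 overlapped the pool and mouse 5 lay 35.2-fold below the highest mouse (SD 2.16 and 0.37, adjusted p = 8.8e-05). Without mouse 5 the SD of Coro1a was 0.24, below that of the pool. Coro1b, a coronin of lamellipodia, read 9.52, 9.46, 8.57, 9.64 and 5.54 in mice 1 to 5 and 9.55, 8.87, 9.60, 8.54 and 9.06 in pools 1 to 5. Mouse 3 was about 1 unit below mice 1, 2 and 4 and stayed within the pool's range. Coro1c, the third coronin measured, had the widest pool spread of all members (SD 0.57), with 6.53 and 6.67 in pools 1 and 3 and 5.48 to 5.72 in the others.

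Fmnl1, a formin of leukocytes that elongates unbranched filaments, had the smallest spread between mice of these 8 genes and the smallest pool spread of all members. It read 6.04, 5.98, 5.21, 5.32 and 5.02 in mice 1 to 5 and 5.73, 5.73, 5.88, 5.78 and 5.68 in pools 1 to 5. Mice 1 and 2 were above the whole pool and mice 3 to 5 below it. The SD was 0.47 between mice and 0.08 in the pool (adjusted p = 0.00534), and 0.43 without mouse 5 (adjusted p = 0.0359). Fmnl1 was the dimmest member, and it did not pass without mouse 5 when the arrays were quantile normalized. Was, which encodes the WASP protein mutated in Wiskott-Aldrich syndrome, and its partner Wipf1 read 9.04 to 9.34 and 9.94 to 10.43 in mice 1 to 4, and 6.93 and 7.34 in mouse 5. The Rac activator Dock2 read 9.95, 10.12, 10.27, 9.22 and 6.56 in the mice (SD 1.54). Dock8, a Cdc42 activator, read 9.15, 9.30, 8.77, 9.21 and 6.40 (SD 1.23).

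Of the 6 genes acting at filament ends, Vasp, Capg, Capzb and Evl varied more between the 5 mice, while Gsn and Capza2 did not pass. Vasp, an elongation factor at the leading edge, read 10.62, 10.44, 10.08, 11.53 and 6.04 in mice 1 to 5 and 10.71, 10.45, 10.93, 10.20 and 10.01 in pools 1 to 5. Mouse 4 was the highest of all arrays and mouse 5 the lowest, a span of 44.9-fold and the widest of the members (SD 2.14 and 0.37, adjusted p = 0.000108). Without mouse 5 the SD of Vasp was 0.62 (adjusted p = 0.19). Capg, a gelsolin relative that caps without severing, read 8.41, 8.26, 8.87, 6.83 and 5.05 in mice 1 to 5 and 8.37, 7.94, 8.55, 8.12 and 7.54 in pools 1 to 5. Mice 4 and 5 were both below the pool, and the SD was 1.56 with all mice and 0.88 without mouse 5, against 0.39 in the pool. Capg passed in both sets (adjusted p = 0.000352 and 0.0438), but not without mouse 5 when the arrays were centred on their medians.

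Evl, an Ena/VASP family member, read 6.63, 6.87, 6.59, 5.49 and 6.52 in mice 1 to 5 and 6.65, 6.46, 6.26, 5.84 and 6.22 in pools 1 to 5. Mouse 4 was the low array (SD 0.54 and 0.30, adjusted p = 0.0395, and 0.0562 without mouse 5). Without mouse 4 the log2 variance ratio of Evl was -1.58, against 2.07 with all mice. The other Evl probe set above the filter read 3.55 in mouse 4 and 4.65 in mouse 5 against 7.01 to 7.16 in mice 1 to 3. Capza2, an alpha subunit of the barbed end capping protein, had the smallest spread of this group. It read 9.63, 9.47, 10.27, 10.12 and 9.58 in mice 1 to 5 and 10.07, 9.58, 10.02, 9.66 and 9.51 in pools 1 to 5 (SD 0.36 and 0.26, adjusted p = 0.39). Its partner Capzb was at 8.48 in mouse 5, below the 10.10 to 10.48 of mice 1 to 4. Gsn, which encodes gelsolin, read 11.69, 11.44, 12.13, 11.88 and 12.67 in mice 1 to 5 and 12.27, 12.56, 12.35, 12.48 and 11.74 in pools 1 to 5. Mouse 5 was the highest of the 10 arrays by this probe set, and the SD of 0.47 did not pass (adjusted p = 0.152).

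Of the 5 crosslinker and motor genes, Lcp1, Flna and Myh9 varied more between the 5 mice, and Myl6 and Actn1 did not pass. Lcp1, which encodes the leukocyte bundling protein L-plastin, read 12.57, 12.51, 12.74, 12.76 and 8.83 in mice 1 to 5 and 12.81, 12.23, 12.88, 12.44 and 12.12 in pools 1 to 5. Mice 1 to 4 lay together (SD 0.12) and mouse 5 was far below (SD of all mice 1.71, adjusted p = 0.000142). Flna, which encodes the crosslinker filamin A, read 10.06, 10.39, 10.20, 10.32 and 6.70 in mice 1 to 5 and 11.23, 10.46, 10.91, 10.89 and 10.61 in pools 1 to 5. All 5 mice were below every pool array, with mouse 2 closest to pool 2, and the SD was 1.59 between mice and 0.30 in the pool (adjusted p = 0.000258). Actn1, which encodes alpha actinin 1, had the smallest spread of all 35 members. It read 10.11, 9.89, 9.81, 9.64 and 10.06 in mice 1 to 5 and 11.08, 10.78, 10.58, 10.76 and 10.42 in pools 1 to 5, with no overlap. The SD of Actn1 was 0.19 between mice and 0.25 in the pool (adjusted p = 0.849), and mouse 5 lay within the range of the other mice. Another Actn1 probe set read 8.16, 7.92, 7.08, 9.27 and 8.39 in mice 1 to 5 and 8.37, 8.16, 7.97, 8.19 and 8.31 in pools 1 to 5. There the groups overlapped, mouse 4 was the highest array, and the SD was 0.79 between mice and 0.15 in the pool, so both the separation and the small spread of Actn1 held for the main probe set and not for this one.

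Of the 5 membrane and adhesion linkers, Ezr, Tln1 and Msn varied more between the 5 mice. Ezr, which encodes ezrin, read 10.03, 10.38, 10.56, 9.98 and 5.63 in mice 1 to 5 and 10.20, 9.27, 10.28, 9.36 and 9.28 in pools 1 to 5. Mouse 5 was low, and the pool itself split, with pools 1 and 3 about 1 unit above the others (SD 2.07 and 0.51, adjusted p = 0.000216). Tln1, which encodes the integrin activator talin 1, read 9.80, 9.64, 9.05, 10.55 and 6.34 in mice 1 to 5 and 10.55, 10.30, 10.37, 10.14 and 9.95 in pools 1 to 5. Mouse 4 reached the top of the pool and the other mice were below it (SD 1.62 and 0.23, adjusted p = 0.000186, and 0.13 without mouse 5). Msn, which encodes moesin, the main ERM protein of leukocytes, was at 9.88 in mouse 5, below the 11.13 to 11.73 of mice 1 to 4. Rdx, which encodes radixin, read 8.47, 8.39, 8.79, 8.13 and 8.10 in mice 1 to 5 and 8.60, 7.92, 8.21, 7.56 and 7.5 in pools 1 to 5. The SD of Rdx was 0.28 between mice, below the 0.46 of the pool (adjusted p = 0.733). The other Rdx probe sets read 4.81 and 4.76 in mouse 5 against 6.91 to 8.56 in mice 1 to 4.

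Several genes thus gave different pictures of mouse 5 through different probe sets. The 35 members had 68 probe sets, of which 61 were above the filter, and 17 genes had more than 1 of these. In mouse 5, 50 of the 61 were below the median of mice 1 to 4 and 11 above. For 14 of the 17 genes the probe sets differed by more than 1 unit in this shift, and for 6 genes (Actb, Actn1, Cfl1, Coro1c, Gsn and Myl6) they went both ways. The shifts of the 5 Gsn probe sets were 0.89, 1.46, -4.21, 1.21 and 1.17. Those of Myl6 were 0.83, -2.06 and -0.41, and those of Lcp1 were -3.83 and -1.0. All 4 probe sets of the class that can match several genes (suffix x) were above the median. They belonged to Gsn and Cfl1 alone, among them the main probe sets of both. A Gsn probe set without this suffix was above the median as well, with a shift of 1.17. Of the 5 probe sets with the suffix s, also a multiply matching class, 1 was above. The share over all probe sets of the array was not counted. The array's probe sets mostly lie near the 3′ end at differing distances, which were not measured here.

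**Figure D4:**
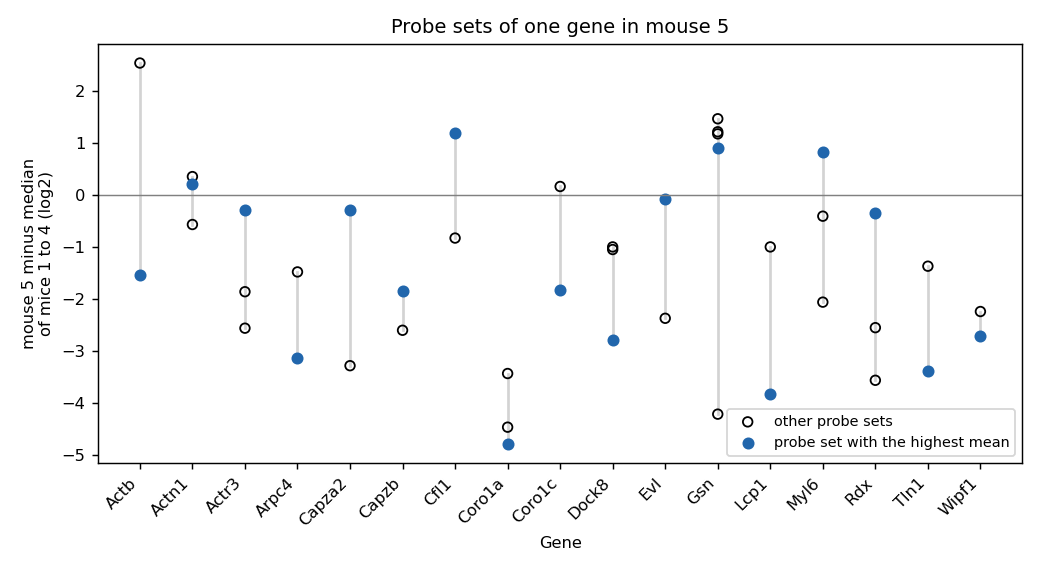
Signal of mouse 5 minus the median of mice 1 to 4 (vertical axis, log2) for each probe set above the filter of the 17 genes that had several (horizontal axis); filled points are the probe set used in the comparisons and open points the others. Probe sets of 1 gene are spread from -4.21 to 1.46 for Gsn and from -1.54 to 2.53 for Actb.

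The second comparison asks whether the mean of the mice differed from the pool. The pool is 1 mixture, so its spread says nothing about differences between mice. The error was taken from the mice with limma and the pool was counted as the mean of 5 mice, the number whose blood it held. That count was set, not measured, since no value of a single pooled mouse enters, and every SE and p of this comparison rests on it. With all mice no member passed (0% of all genes in either direction), and 1 member, Vcl, did so at an unadjusted p under 0.05. At that level 560 of the 10734 genes tested did so. Without mouse 5, 1 of 35 members was lower in the mice and none was higher, against 1.43% and 0.0279% of all genes. Among the 2684 genes in the 25% with the highest signal, 86 were lower in the same set. In that set 10 members had an unadjusted p under 0.05, in either direction. So did 1333 of the 10734 genes tested and 509 of the 2684 genes in the 25% with the highest signal. Ezr, 1 of the 10 members, was higher in the mice (difference 0.56, unadjusted p = 0.0449 by limma). Without mice 4 and 5, Vcl and Myl6 were lower, or 2 of 35, against 3.21% of all genes, and none was higher, against 1.11%. Among the 2684 genes in the 25% with the highest signal, 157 were lower and 4 higher without mice 4 and 5. With the pool counted as 1 mouse instead, no member and no gene of all those tested passed in either of these sets, and 4 members had an unadjusted p under 0.05 in each.

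Vcl, which encodes vinculin, the link from talin to actin at integrin adhesions, read 8.70, 8.94, 8.96, 9.20 and 7.55 in the mice. Its pool values were 10.75, 10.05, 9.98, 10.31 and 10.38, so every mouse was below every pool array. The difference of mice 1 to 4 from the pool was -1.35 ± 0.20 (SE; adjusted p = 0.0454 by limma). With all mice it was -1.63 ± 0.52 (adjusted p = 0.539), and without mice 4 and 5 it was -1.43 (adjusted p = 0.0315). The call did not hold without mouse 5 under the other scalings, where the difference was -1.27 after quantile normalization (adjusted p = 0.0858) and -1.32 after median centring (adjusted p = 0.0521), nor with the pool counted as 1 mouse (SE 0.33, adjusted p = 0.535). Myl6, which encodes the essential light chain of non-muscle myosin, read 12.18, 12.23, 11.90, 12.49 and 13.03 in mice 1 to 5 and 12.97, 13.16, 12.90, 13.22 and 12.58 in pools 1 to 5. By this probe set mice 1 to 4 were below every pool array and mouse 5 was within the pool's range. Another Myl6 probe set read 11.63, 11.65, 10.94, 12.24 and 9.58 in mice 1 to 5 and 12.13 to 12.71 in the pool. There mouse 4 was above pool 5. The dimmest Myl6 probe set overlapped too (6.07 to 6.76 in the mice, 6.54 to 6.87 in the pool). By the main probe set the Myl6 difference was -0.77 ± 0.16 for mice 1 to 4 (adjusted p = 0.105 by limma). For mice 1 to 3 it was -0.86 ± 0.14 (adjusted p = 0.0491, and 0.317 with the pool counted as 1 mouse). The other Vcl probe set, below the filter on signal, overlapped as well (3.08 to 4.55 in the mice, 3.24 to 4.02 in the pool).

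Actn1, Arpc1a, Flna and Vcl, or 4 of 35 members (11.4%), were below every pool array in all 5 mice, against 5.47% of all genes and 10.2% of the 25% with the highest signal. In mice 1 to 4 there were 5 such members (14.3%), Myl6 being added by its main probe set, against 7.99% and 12.9%. No member was above every pool array in mice 1 to 4 (2.08% of all genes) or in all 5 mice (0.503%). The differences of mice 1 to 4 that did not pass were -1.16 for Arpc1a (adjusted p = 0.101), -0.86 for Actn1 (0.106), -0.83 for Pfn1 (0.187) and -0.58 for Flna (0.243). Myh9, the heavy chain of non-muscle myosin IIA, read 9.91, 10.34, 9.65, 8.90 and 6.86 in mice 1 to 5 and 10.31 to 11.01 in pools 1 to 5, a difference of -1.10 for mice 1 to 4 (adjusted p = 0.245). Vinculin, talin, alpha actinin, filamin A and non-muscle myosin are abundant in platelets. The talin gene Tln1 overlapped the pool, at 6.34 to 10.55 in the mice and 9.95 to 10.55 in the pool. Its difference was -0.50 for mice 1 to 4 (adjusted p = 0.671 by limma). The 8 platelet markers tested, such as Pf4 (11.54 to 12.28 in the mice, 13.01 to 13.35 in the pool) and Itga2b (9.83 to 11.71 and 12.50 to 12.97), were each below every pool array in all 5 mice. All 8 (of 10 listed) were above the filter on each of the 10 arrays. Their part in the values of Vcl, Actn1, Arpc1a, Flna, Myh9, Myl6 and Tln1 was not tested. In such bulk samples fewer cells of a type and less RNA per cell cannot be told apart.

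**Figure D5:**
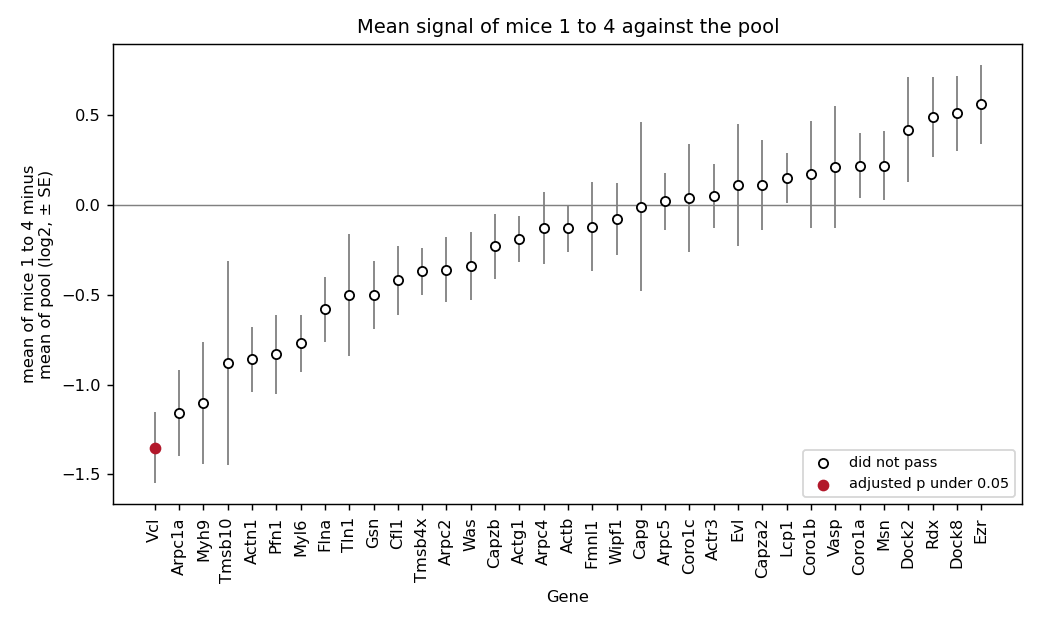
Mean log2 signal of mice 1 to 4 minus the mean of the 5 pool arrays (vertical axis, with SE bars taken from the mice) for 35 genes (horizontal axis, in order of the difference); the filled point passed at an adjusted p under 0.05. Vcl is the lowest at -1.35, and the genes run up to 0.56 for Ezr.

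The pool arrays differed from each other in a way shared by many members. Pool 5 was the lowest pool array for 25 of the 35 members, or 71.4%, against 37.2% of all genes and 66.8% of the 25% with the highest signal. After quantile normalization it was the lowest for 2 members. Pools 1 and 3 were both above pools 2, 4 and 5 for 21 members, such as Ezr, Coro1c, Dock2 and Dock8, or 60% against 31.5% of all genes and 50.9% of the 25% with the highest signal. Dock2 read 10.02 and 9.85 in pools 1 and 3 and 9.08 to 9.26 in the others, and Dock8 read 8.92 and 9.20 against 8.13 to 8.44.

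Beyond the members, 78 further genes of actin regulation were listed, of which 69 had a probe set and 63 were tested. With all mice 44 of 63 varied more between mice (69.8%, against 66.8% of all genes and 76.2% of the 25% with the highest signal). Without mouse 5 it was 8 (12.7%, against 20.3% and 10.6%). Without mice 4 and 5 it was 0, against 0.708% of all genes. At an unadjusted p under 0.05 it was 7 in that set, against 959 of the 10734 genes tested. The 8 were Hcls1, Arpc5l, Tpm2, Add3, Sptbn1, Myl9, Myh10 and Mrtfb. Hcls1, the cortactin relative of blood cells, had the largest SD between mice, 2.57, with 9.45, 8.95, 7.75, 10.17 and 3.68 in mice 1 to 5 and 8.45 to 9.69 in pools 1 to 5. Myo1f, a class I myosin of leukocytes, followed with an SD of 2.36 and read 11.00, 10.89, 10.61, 10.56 and 5.50 in the mice. Mouse 5 alone set the spread of Myo1f, while Hcls1 also had a low mouse 3 and a high mouse 4. Tpm2, a tropomyosin, read 8.06, 8.49, 6.12, 7.99 and 11.91 in mice 1 to 5 and 9.95 to 11.17 in pools 1 to 5, so mouse 5 was above the pool and the other mice below it (SD 2.11). Arpc5l, the alternative form of Arpc5, read 9.32, 9.20, 10.04, 7.54 and 4.96 in the mice (SD 2.04), with mice 4 and 5 below the pool. The smallest spreads were those of the WAVE complex gene Abi1 (SD 0.13, 8.46 to 8.78 in the mice) and the formin gene Daam1 (SD 0.17).

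In the comparison of means, 3 of these 63 genes, Daam1, Tpm1 and Tpm4, were lower in mice 1 to 4 and none was higher. Of all genes 1.43% were lower, as were 86 of the 2684 genes in the 25% with the highest signal. Under each of the other scalings 2 of the 63 passed. With the pool counted as 1 mouse, 0 of the 63 passed in this set or without mice 4 and 5, with adjusted p-values by limma of 0.511 to 0.535 for these 3 genes in mice 1 to 4. Daam1 read 6.24, 6.49, 6.15, 6.17 and 6.03 in mice 1 to 5 and 8.17, 7.81, 7.46, 7.88 and 7.77 in pools 1 to 5, with no overlap (difference -1.55 ± 0.19 in mice 1 to 4, adjusted p = 0.0395 by limma). Tpm4, the tropomyosin of platelets and other non-muscle cells, read 11.13, 11.14, 11.16, 11.23 and 11.75 in mice 1 to 5 and 11.88 to 12.38 in pools 1 to 5 (difference -0.91 ± 0.13, adjusted p = 0.0454). Tpm1 read 5.50, 6.41, 5.21, 6.05 and 6.82 in mice 1 to 5 and 6.98, 9.92, 7.90, 9.76 and 8.29 in pools 1 to 5. Its pool SD of 1.25 does not enter the error of this test (difference -2.78 ± 0.32, adjusted p = 0.0387). Without mice 4 and 5 the LIM kinase gene Limk1 was lower as well (difference -0.98 ± 0.13, adjusted p = 0.0355, and 0.255 with the pool counted as 1 mouse). It read 5.50, 5.42, 5.75, 3.89 and 4.42 in mice 1 to 5 and 6.07 to 7.46 in pools 1 to 5. All 4 stood beside the same low platelet list in the mice, whose part was not tested.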

How the data were processed

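Biotin-labelled cDNA from 2 rounds of amplification was hybridized to Affymetrix MG-430 PM arrays, per the labels' protocols. The deposited values are log2 signals of 45141 probe sets on 10 arrays, computed by the authors with RMA (version not given in the sources used here), per the submitters' processing notes. The 10 columns were used as deposited. Depth does not apply to arrays, and 5 arrays a group limit the precision.

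Probe sets were named through the platform's probe table: 28898 had 1 symbol, 551 several and 15588 none, and 104 were controls. Of the named ones, 28689 matched the GRCm38.p6 gene table by gene ID and 0 differed in symbol. The probe set with the highest mean stood for a gene, and a gene was tested if its mean exceeded 4.58 (the median over probe sets), which left 10734 genes. All 35 members passed this filter, the dimmest being Fmnl1 at 5.63.

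The variance between mice was divided by that between pool arrays, moderated with an intensity trend (limma 3.58.1 in R 4.3.3, squeezeVar), and tested on each side separately. Means were compared with limma, 2-sided, on each mouse minus the pool mean, with the error from the mice and the pool weighted as 5 mice. Benjamini-Hochberg adjustment ran over all genes tested, with a threshold of 0.05. Both tests were run on simulated data that held no outlying array such as mouse 5. For the test of means the simulated pool was drawn as the mean of 5 mice. The variance test found 19.4, 74.6 and 98.5% of genes with variance ratios of 4, 16 and 64, and called 17 unchanged genes. The test of means found 70.1, 98.5 and 100% of genes with differences of 1, 2 and 3, and called 25 unchanged genes. Its simulated SD between mice was set nearer to the pool's than in the data with all mice. There the median SD over all genes was 0.57 between mice and 0.23 between pool arrays. The shares found for means therefore do not carry over to the comparison with all mice. No label ties the replicate numbers of the groups, and same-numbered arrays correlated at -0.26 to 0.50, so the numbers were not treated as pairs.

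The members, the 78 pathway genes and the marker lists were chosen with earlier results of these data known. Within each role, the 2 genes with the largest and the 1 with the smallest SD between mice are given by array, with each that passed without mouse 5. Of the pathway list these are the 4 largest, the 2 smallest and those that passed without mice 4 and 5. Other genes were named after their values were seen. Alternatives covered the filter, the scaling, the probe set, the test, each array left out and, chosen after seeing the data, the pool counted as 1 mouse.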

Additional observations from a re-analysis of the deposited data

Results flagged for a closer look

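For each of the 35 members, the 5 mice and the 5 pool arrays were each looked at as a group. In 23 of these groups, 1 array lay far from the other 4. The test was of the gap to the nearest array over the whole range, and flags about 1 in 20 groups by chance. That rate takes no account of an array that is low over many genes, as mouse 5 was. The share flagged over all genes was not counted, so the 23 cannot be read as particular to these members. Mouse 5 was below every other array for 71.4% of the members, against 73.9% of the 25% of genes with the highest signal. Of the 23 flagged groups, mouse 5 was the low array in 18, pool 5 in 4 and mouse 4 in 1. The low values of mouse 5 were 11.69 for Actb and 10.97 for Actg1. In the Arp2/3 complex they were 4.29 for Arpc1a, 6.16 for Arpc4 and 9.52 for Arpc5. Among the monomer binding genes they were 6.71 for Pfn1 and 11.89 for Tmsb4x. Among activators and coronins they were 7.48 for Coro1a, 5.54 for Coro1b, 6.93 for Was, 7.34 for Wipf1, 6.56 for Dock2 and 6.40 for Dock8. At filament ends they were 8.48 for Capzb and 6.04 for Vasp, among crosslinkers 8.83 for Lcp1 and 6.70 for Flna, and among linkers 5.63 for Ezr. The low values of pool 5 were 13.07 for Actb, 12.09 for Arpc2, 8.99 for Was and 10.01 for Capzb. The low value of mouse 4 was 5.49 for Evl. The 95th percentile of all signals on these arrays was 7.46 in mouse 5, 8.72 in pool 5 and 8.80 in mouse 4.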

How the results depend on the processing

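The 27 members that varied more between mice became 0 without mice 4 and 5 and 1 (Fmnl1) when absolute deviations were tested, and ran from 3 (without mouse 5) to 29 with single arrays left out. The shares of all genes were 0.708%, 16.3% and 20.3 to 70.7% in the same order. The filter, scaling, probe set and unmoderated test left 20 to 30 members, with 20 for the unmoderated test (35% of all genes). For the others the share of all genes was 64.1 to 78.1%. Of the pathway genes 44 became 0, 12 and 8 to 50 in the same order. Alternatives that join 2 choices were added after seeing the data: without mouse 5, quantile normalization gave 6 members and 21 pathway genes, and median centring 2 and 7. Of all genes, 27.5% and 18.5% passed in these settings. The members' median SD between mice was 0.23 without mice 4 and 5, 0.31 or 0.27 in those joint settings, and 0.27 to 1.05 with single arrays left out; it was 1.24 with the probe set of median signal and 0.69 after quantile normalization. That between pool arrays was 0.25 to 0.35 with single arrays left out and 0.21 after quantile normalization. Members with a different mean numbered 0 with all mice, 2 without mice 4 and 5, 1 (Vcl, adjusted p = 0.0385) in an ordinary limma fit of both groups, and 0 to 1 with single arrays left out. Pathway genes numbered 4, 5 and 0 to 3, and 2 in each joint setting. With the pool counted as 1 mouse, also added after seeing the data, no gene passed without mouse 5 or without mice 4 and 5. A fit with the replicate number as a block, where the numbers do not pair the samples, gave 0 members (Vcl adjusted p = 0.108) and 4 pathway genes, and 188 of all genes against 288 without it.

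The log2 variance ratio turned sign for 20 members without mice 4 and 5: Actb -2.58, Actg1 -2.27, Arpc4 -1.35, Arpc5 -1.10, Tmsb4x -4.49, Coro1a -1.30, Was -1.93, Wipf1 -1.06, Capg -0.34, Msn -0.20, Ezr -1.23, Dock2 -2.55, Dock8 -0.98, Capzb -1.42, Vasp -0.72, Evl -1.50, Lcp1 -2.75, Myl6 -1.35, Flna -2.0 and Vcl -2.52. The variance ratio was then below 1 for 24 members, against 6673 of the 10734 genes tested. With all mice it was below 1 for 4 members and 853 genes, and without mouse 5 for 22 members and 3358 genes. The share of all genes that turned was not counted. With the probe set of median signal the log2 ratio turned for Actr3 (3.87), Coro1c (-1.58), Rdx (3.88) and Actn1 (3.02). Without multiply matching probe sets it turned for Coro1c (-1.56). Quantile normalization turned Arpc2 (1.22), Rdx (2.30), Vcl (-0.17) and Actn1 (2.84). Median centring gave 0.29 for Arpc2, and the unmoderated and absolute deviation tests 0.53. With single arrays left out it turned for 23 members and ran as follows, the lowest value coming without mouse 5 except for Actr3, Arpc2, Capza2 and Evl: Actb -1.36 to 6.32, Actg1 -2.53 to 5.71, Actr3 -2.40 to 1.2, Arpc1a -0.07 to 5.56, Arpc2 -1.16 to 2.61, Arpc4 -1.62 to 5.17, Arpc5 -1.47 to 4.97, Pfn1 -0.27 to 5.71, Tmsb4x -1.52 to 4.79, Coro1a -0.92 to 6.49, Was -2.36 to 4.5, Wipf1 -1.16 to 4.64, Gsn -0.24 to 3.64, Msn -0.72 to 3.40, Ezr -1.12 to 5.00, Dock8 -1.44 to 3.77, Capza2 -0.29 to 1.17, Capzb -1.86 to 4.51, Evl -1.58 to 2.50, Lcp1 -2.69 to 5.95, Myl6 -0.44 to 3.38, Flna -2.39 to 5.19, Vcl -1.52 to 2.33. The causes were not tested. The number of arrays limits what either test can call.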
